A study of Mus musculus with 4 samples.

Results

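Neuron cluster M22 is 1 of 37 neuron populations that the authors defined in nuclei of the mouse mediobasal hypothalamus, the ventral region that holds the arcuate nucleus. Its members were all nuclei whose deposited population name begins with M22, and they numbered 1700 of 23261 nuclei with a named neuron population and of 36523 annotated nuclei. Only one other population held more nuclei. The mice were wild type, fed chow ad libitum, and received Saline or Insulin, and RNA was read by droplet-based 3' single-nucleus sequencing of nuclei cleaned by flow sorting. The labels give no dose, route, time after treatment, age, sex or number of mice for any of the 4 libraries, 2 Saline and 2 Insulin. They do not say whether a library is a single mouse or a pool, so p-values here reflect library-to-library spread alone, which may be technical. Each of 2 sequencing runs, named 230 and 232, held 1 Saline and 1 Insulin library.

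GABAergic neurons make the inhibitory transmitter GABA from glutamate with the glutamate decarboxylases, load it into vesicles with the vesicular GABA transporter and take it up again with plasma membrane transporters. Glutamatergic neurons instead carry vesicular glutamate transporters. In the hypothalamus both kinds are further divided by the transcription factors and neuropeptides that they express, and many of the peptides act on feeding, body temperature, circadian timing or hormone release.

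M22 held 352 nuclei in the Saline library of run 230, 428 in the Saline library of run 232, 379 in the Insulin library of run 230 and 541 in the Insulin library of run 232. Summed per library, these nuclei gave 3234649, 3737926, 3494275 and 3897047 UMIs (unique molecular identifiers, each a counted RNA molecule). The median M22 nucleus had 7404 UMIs, against 8530 in the other neurons, and the Insulin library of run 232 was the shallowest with 6277. Levels below are CPM, UMIs per 1000000 UMIs of the same nuclei and library. No barcode sequence occurred in M22 of more than 1 library, and 3 M22 nuclei shared theirs with a nucleus of another library. Run and sex coincided: Xist, the RNA of the inactive X chromosome, was at 0.309 (Saline) and 0 CPM (Insulin) for M22 of run 230, and at 1339 and 1520 CPM for run 232. The Insulin library of run 232 also stood apart in its makeup within M22, described below, and results that move with it are also given without the nuclei concerned.

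The label of M22 as a neuron population was checked against marker genes. The 10 neuron markers summed to between 14440 and 15865 CPM in the 4 libraries, against 13228 to 14396 CPM in all other neurons, although Tubb3 was at 0 UMIs. The 8 astrocyte markers summed to between 95.2 and 146.6 CPM, close to the 83.3 to 124.5 CPM of other neurons and far under the 9330 to 10198 CPM of astrocytes. The 8 oligodendrocyte markers summed to 100.2 to 141.1 CPM in M22, 139.6 to 169.1 CPM in other neurons and 14704 to 15175 CPM in oligodendrocytes. The lists for oligodendrocyte precursors, microglia, endothelial, mural and ependymal cells with tanycytes summed to between 9.89 and 171.3 CPM in M22. No member of these 7 lists was at 0 UMIs in M22.

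M22 nuclei had the transcripts of GABAergic neurons. Gad2, one of the glutamate decarboxylases, was at 244.5 and 302.0 CPM in the Saline libraries and at 289.9 and 276.9 CPM in the Insulin libraries, with a mean of 278 ± 24.8 (SD, n = 4) against 124.8 over the 36 other populations. Gad1, the other decarboxylase, was at 92.4, 113.2, 115.0 and 131.4 CPM in the same order, against 59.9 over the others. Means in M20.GABA and M19.Ddc, close populations described below, were 313 and 297 CPM for Gad2 and 102.5 and 111.9 for Gad1. The vesicular GABA transporter Slc32a1 (ENSMUSG00000037771, GRCm38 chr2:158610767-158615748, plus strand) was at 48.2, 93.6, 76.7 and 82.1 CPM. Its mean of 75.2 was the second highest of the 37 populations, next to 75.9 in M20.GABA, a difference far smaller than the SD of 19.3 between libraries. The Saline library of run 230 was the low one for all 3 of these genes. The glycine transporter gene Slc6a9 ranked second, at 17.4 ± 3.19 CPM (SD, n = 4) against 12.1, but after the thinning described next it had a UMI in 3.36% of M22 nuclei, below the 11.0% of oligodendrocytes.

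The vesicular glutamate transporter Slc17a6 was at 10.8, 15.5, 17.7 and 14.6 CPM, against 75.1 over the other populations and 230 in M28.Tac2, where it was highest. Slc17a7 had no UMI in M22, and Slc17a8 had a mean of 0.30 CPM. To compare nuclei at equal depth, each was thinned to 2000 UMIs, which left out 5 M22 nuclei, 209 other neurons and 1008 oligodendrocytes. Slc17a6 then had a UMI in 2.42% of M22 nuclei, below the 5.23% of oligodendrocytes, a cell type that should lack it and whose median depth was 2354 UMIs before thinning. By this share, Slc17a6 in M22 was not above oligodendrocytes. Thinning removed more UMIs from M22 nuclei, whose median was 7404, so the comparison cannot settle how much of the signal is background. Slc32a1 had a UMI in 15.5% of M22 nuclei, 5.55% of other neurons and 4.65% of oligodendrocytes, and Gad2 in 42.9%, 17.99% and 5.44%. Without thinning, the M22 shares were 8.59% for Slc17a6, 44.2% for Slc32a1 and 79.9% for Gad2. Of 1695 thinned M22 nuclei, 1013 (59.8%) had UMIs of Gad1, Gad2 or Slc32a1 and none of the 3 vesicular glutamate transporters, 18 had only the latter, 24 had both and 640 had neither.

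**Figure D1:**
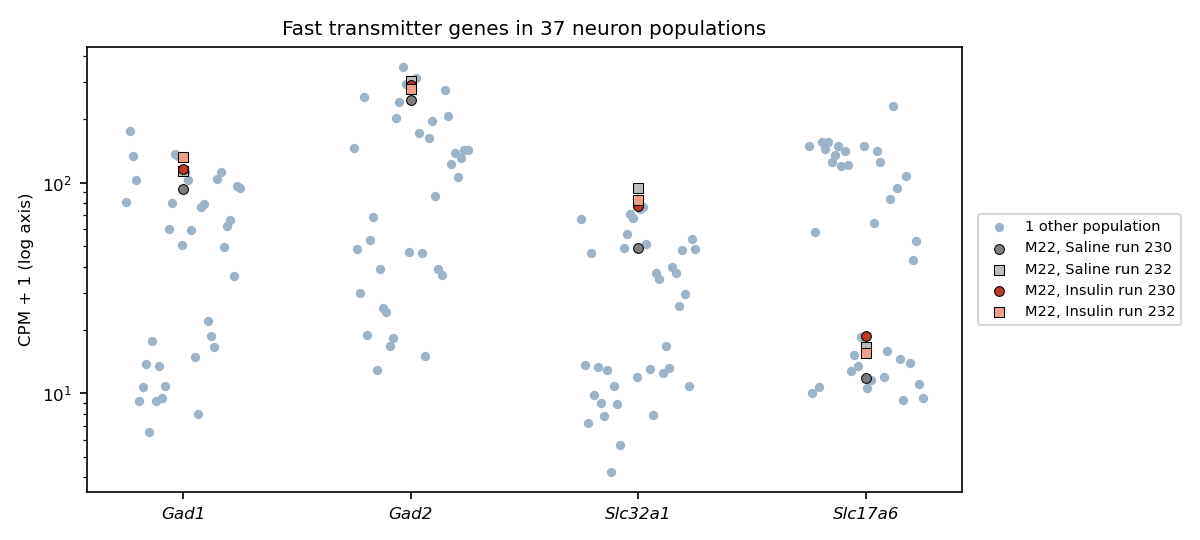
CPM + 1 on a log axis for 4 fast transmitter genes. Small blue points are the means of the 36 other populations and outlined symbols are the 4 M22 libraries, which lie in the upper part of the range for Gad1, Gad2 and Slc32a1 and in the lower cloud for Slc17a6, at 10.8 to 17.7 CPM.

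Against the other populations M22 stood out by few genes. Among 7470 genes at 20 CPM or more in M22 with at least 3 UMIs in every library, 16 were highest in M22, 34 were at least 2-fold and 2 at least 4-fold above the mean of the other populations (after adding 1 CPM to both). By the share of such 4-fold genes, 0.0268%, M22 was the last of the 37 populations. Because the populations were made by clustering on these same counts, this comparison is a description and carries no test.

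The 2 genes past 4-fold were neighbours in the genome. Lhx1, a LIM homeodomain transcription factor (ENSMUSG00000018698, GRCm38 chr11:84518284-84525535, minus strand), was at 21.6 and 35.3 CPM in the Saline libraries and 30.6 and 36.9 CPM in the Insulin libraries. The mean of the other populations was 4.89 CPM, a log2 ratio of 2.45, and only M31.Th was higher, at 46.9. Lhx1os, a long noncoding RNA gene (ENSMUSG00000087211, chr11:84525660-84535831, plus strand), was at 17.6, 35.0, 27.2 and 24.4 CPM against 3.98, with a log2 ratio of 2.44, and was again higher only in M31.Th (36.5). All 4 libraries of M22 were above the mean of the others for both genes. After thinning, Lhx1 had a UMI in 6.02% of M22 nuclei, against 0.87% of other neurons and 0.37% of oligodendrocytes. Lhx1os had a UMI in 16.7% of the 102 nuclei with an Lhx1 UMI and in 4.08% of those without.

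Lhx1 and Lhx1os are transcribed away from each other, and 124 bases lie between their annotated starts. The sequence is shown because this single interval lies upstream of both leading genes of M22. It is the RefSeq promoter window of Lhx1 on the minus strand (GRCm38.p6, chr11:84525485-84525784, 300 bases, 5′ to 3′), and the capitals mark the stretch between the 2 annotated genes.
Lhx1 promoter window: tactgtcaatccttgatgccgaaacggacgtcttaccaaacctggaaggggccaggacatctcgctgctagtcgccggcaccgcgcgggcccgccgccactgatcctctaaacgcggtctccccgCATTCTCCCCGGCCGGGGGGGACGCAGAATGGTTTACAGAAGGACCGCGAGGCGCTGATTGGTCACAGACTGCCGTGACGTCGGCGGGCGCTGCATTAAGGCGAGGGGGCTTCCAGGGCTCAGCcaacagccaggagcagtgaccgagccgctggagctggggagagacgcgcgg
The window of Lhx1os on the other strand, chr11:84525410-84525709, overlaps it. Of 27025 genes with a RefSeq promoter window, 11.9% had one that overlapped a window of another gene on the opposite strand. The Lhx1 window held 31 CG dinucleotides, against a median of 7, and 10.3% of windows held as many or more. These are descriptions of the sequence, and no regulatory activity was measured here.

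The other leading genes of the profile were graded rather than exclusive. Of the 25 genes with the highest ratio, 16 ranked among the first 3 populations and 3 ranked first. The 25 included 7 predicted transcripts, which are not described. Mme, the membrane peptidase neprilysin that degrades peptides (ENSMUSG00000027820, chr3:63241537-63386030, plus strand), ranked first, at 28.8, 19.3, 20.3 and 13.9 CPM against 4.45 over the others and 14.1 in M15.Nts, the next highest. Mir124-2hg, the host transcript of a neuronal microRNA, was at 102 ± 11.4 CPM (SD, n = 4) against 38.8. Zfhx3, a large zinc finger and homeobox transcription factor, was among the more heavily counted genes, at 1405 ± 65.5 CPM (SD, n = 4) against 608, and it had a UMI in 81.7% of thinned M22 nuclei and 49.6% of other neurons.

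Further genes among the 25 were at lower ratios. The homeobox gene Mkx was at 58.8 against 25.9 CPM, the zinc finger gene Zfp385b at 427 against 182, and Npas3, a basic helix-loop-helix transcription factor, at 570 against 257. Npas3 also had a UMI in 61.2% of thinned oligodendrocytes. Genes of the cell surface and matrix were Col19a1 (31.4 against 11.95 CPM, with 31.2 in M20.GABA), the guidance molecule Sema5b (20.4 against 7.69) and Hmcn1 (54.1 against 23.9). The sialyltransferases St8sia5 (24.2 against 9.59) and St8sia6 (33.8 against 15.1) were also among them. Gad1os was at 29.6 against 11.5 CPM. It is annotated antisense to Gad1 and overlaps it on chromosome 2, and since the strand setting of the counting is not given in the sources used here, reads of the overlap cannot be told apart.

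Beside Slc17a6, 8 further genes were among the lowest in M22 relative to the mean of the others. Hcrtr2, a receptor for the orexin peptides, was at 11.7 to 13.3 CPM in the 4 libraries against 68.8 over the others. Cacna2d1, an auxiliary subunit of voltage-gated calcium channels, was at 180 ± 32.5 CPM (SD, n = 4) against 696, and only 3 of the 37 populations were lower. Rreb1, a zinc finger transcription factor of Ras signalling, was at 9.95 against 54.5 CPM, Tmcc3 at 146.5 against 481, Adamtsl1 at 19.0 against 61.6, the lipid flippase Atp10a at 19.7 against 62.9, the kinase Nek10 at 18.3 against 57.4 and the transcription factor Nfib at 21.9 against 66.8. Low here means low against that mean. Counted without the C15 nuclei described below, M22 ranked only 19 of 37 for Nfib and 23 for Slc17a6. For the rest of the genes named in this paragraph it ranked 29 to 36. None of the 10 lowest genes was at its minimum in M22.

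**Figure D2:**
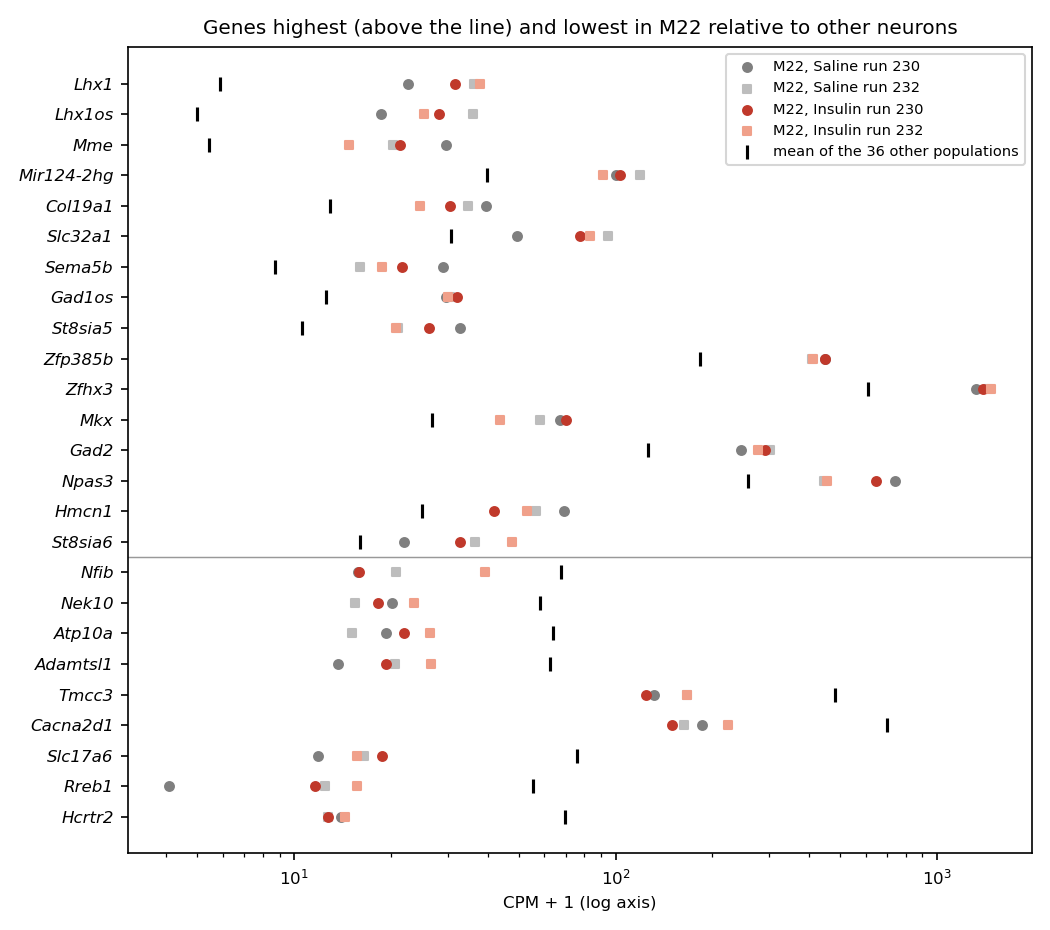
CPM + 1 on a log axis for genes with the highest (above the line) and lowest ratio of M22 to the other populations. Symbols are the 4 M22 libraries and black ticks the mean of the 36 other populations; the 4 libraries lie on the same side of the tick for each gene drawn, from 21.6 to 36.9 CPM against 4.89 for Lhx1.

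Among transcription factors of brain regions, 85 of 109 genes reached 10 CPM in at least 1 population, and M22 was above the mean of the others for 31 of them (36.5%, against 40.5% of all 13290 such genes). Beside Lhx1 and Npas3, M22 ranked among the first 3 for Npas1, Pou3f2 and Meis2. Npas1, a basic helix-loop-helix factor, was at 17.6, 12.8, 16.6 and 12.3 CPM against 2.90 over the others. The POU-domain factor Pou3f2 was at 18.7 ± 1.86 CPM (SD, n = 4) against 9.75, with 143 in M24.Avp/Oxt. Rora, a nuclear receptor with a role in the circadian clock, was at 999.3 ± 26.3 CPM (SD, n = 4) against 789.

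No neuropeptide gene marked M22 as a whole, and Vip, at few CPM, is described below. Of 44 peptide genes, 27 reached 10 CPM somewhere and M22 was above the mean of the others for 6 (22.2%, against 40.5% of all such genes). The median log2 ratio was -1.07, against -0.04 over all genes. The peptide genes with most UMIs in M22 were Agrp, whose product stimulates feeding (102 CPM against 117 over the others), Vgf, a precursor of secreted peptides (56.5 against 54.8), and the somatostatin gene Sst (48.2 against 64.0). Agrp was at 70.2 CPM or more in every other population and at 855 in M26.Agrp, so its level did not set M22 apart. Whether the level shared by all populations is transcript of the peptide was not tested. Sst and Pmch had a UMI in 9.20% and 10.3% of thinned M22 nuclei but in 20.2% and 22.6% of oligodendrocytes. Their values may therefore be background. Agrp had a UMI in 18.5% of M22 nuclei, 19.3% of other neurons and 6.74% of oligodendrocytes. Tac2, which encodes neurokinin B, was at 16.1, 24.3, 30.6 and 22.6 CPM against 17.0 over the others, with a UMI in 4.90% of thinned M22 nuclei, 1.49% of other neurons and 2.09% of oligodendrocytes. Of 13 genes of monoamine and acetylcholine neurons, 7 reached 10 CPM somewhere and M22 was above the mean of the others for 0. The gastrin-releasing peptide gene Grp ranked 3, at 4.68 ± 0.96 CPM (SD, n = 4) against 2.96. The M22 level of Ddc, a decarboxylase of monoamine synthesis, of 33.3 CPM compares with 205 in M19.Ddc.

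Receptor and channel genes differed by smaller ratios. Of 88 measured hormone and peptide receptors, 63 reached 10 CPM somewhere, and M22 was above the others for 13 (20.6%, against 40.5% of all such genes). Esrrg, an orphan nuclear receptor, was at 359 ± 28.9 CPM (SD, n = 4) against 230, but at 485 in M20.GABA and 316 in M19.Ddc. Vipr2, a receptor for the peptides VIP and PACAP, was at 11.1, 7.49, 10.0 and 25.9 CPM against 2.57. M22 ranked first for Vipr2, but the Insulin library of run 232 was the high one, and the rank was 2 without the nuclei described in the next paragraphs. Glutamate receptors were above the others for 14 of 23 genes, with ranks of 3 for the kainate receptor gene Grik1 (596 against 326 CPM) and the NMDA receptor subunit Grin2d (46.0 against 32.4). The potassium channel genes Kcnc1 (139 against 93.1 CPM) and Kcns3 (18.2 against 6.29) ranked second. Kcnj6, which encodes a G-protein-gated inward rectifier, was last of the 37 populations, at 112.2, 97.6, 93.3 and 107.5 CPM against 187, and last but one without the C15 nuclei described below. The sodium channel gene Scn1a was at 344 ± 33.7 CPM (SD, n = 4) against 224, and the adhesion molecule gene Cdh10 was highest in M22, at 367 ± 20.3 (SD, n = 4) against 186. The next highest mean of Cdh10 was 338.2 CPM, in M19.Ddc, at the level of the lowest M22 library (338.2). Cdh10 also had a UMI in 54.5% of thinned oligodendrocytes, against 45.8% of M22 nuclei. Of 27 cadherin and protocadherin genes at 10 CPM somewhere, M22 was above the others for 19 (70.4%), with a median log2 ratio of 0.21, and it ranked 3 for Cdh23 (8.21 against 4.51 CPM).

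The populations closest to M22 by the Pearson correlation of log2(CPM + 1) across 2000 genes were M20.GABA (0.957), M19.Ddc (0.949) and M23.Sim1|Pou3f2 (0.946). Genes are not independent replicates, and these values only order the populations. M22 differed from M20.GABA by higher Lhx1 (31.1 against 3.29 CPM), Zfhx3 (1405 against 251) and Nxph1 (623 against 179), and by lower Meis2 (50.9 against 817), Zeb2 (13.1 against 138), the mechanically gated channel gene Piezo2 (13.1 against 111), the synaptic vesicle gene Synpr (52.4 against 335) and Prox1 (10.4 against 65.9). It differed from M19.Ddc by higher Fign (86.0 against 7.32 CPM), the neuregulin receptor gene Erbb4 (946 against 147), the transcription factor Mef2c (197 against 35.2) and Isl1 (45.2 against 8.83), and by lower Onecut2 (22.3 against 188), Onecut3 (2.50 against 29.1) and Ddc. It differed from M23.Sim1|Pou3f2 by GABAergic genes, with higher Dlx6os1 (93.6 against 6.85 CPM), Dlx1 (21.1 against 2.22), Gad1 (113 against 13.9) and Slc32a1 (75.2 against 12.1), and by lower Sim1 (4.53 against 167), Ebf3 (2.07 against 112) and Slc17a6 (14.7 against 141). For each gene of this paragraph the lowest and highest libraries of the 2 populations did not overlap.

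The deposited table also gives each neuron a conserved cluster. Of the 1700 M22 nuclei, 1478 (86.9%) were in C6, 103 (6.06%) in C15.GABA, 56 (3.29%) in C30.GLUT, 19 (1.12%) in C27.GLUT and the rest in others. The C30 nuclei numbered 10, 6, 7 and 33 in the libraries' order above. In all, 80 M22 nuclei were in conserved clusters that the authors named GLUT. Of the 79 of them kept after thinning, 46.8% had a UMI of Gad1, Gad2 or Slc32a1 and 5.06% one of a vesicular glutamate transporter, against 62.4% and 2.37% of C6 nuclei. C6 was shared with the close populations: M22 made up 42.0% of its nuclei, M20.GABA 27.5% and M19.Ddc 22.8%. The C15 nuclei of M22 came almost entirely from one library. They were 2 of 352 nuclei in the Saline library of run 230 (0.568%, exact 95% interval 0.0689 to 2.04%), 7 of 428 in the Saline library of run 232 (1.64%, 0.66 to 3.34%), 5 of 379 in the Insulin library of run 230 (1.32%, 0.43 to 3.05%) and 89 of 541 in the Insulin library of run 232 (16.5%, 13.4 to 19.8%). These intervals cover counting error only. M17.GABA, the population with most C15 nuclei, held 135, 76, 59 and 133 of them in the same order. With 1 such library, an effect of treatment and a property of that library cannot be told apart.

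Within the Insulin library of run 232, the 89 C15 nuclei were shallower than the 396 C6 nuclei, with a median of 4822 against 6454 UMIs, and had another set of transcripts. The conserved clusters are the authors' groups and rest on expression, so differences between them are in part built in and carry no test. The genes named here were chosen after their values were seen. Prok2, which encodes a secreted peptide known as an output of the circadian clock, had 56 UMIs in C15 nuclei (123 CPM, exact 95% Poisson interval 93.0 to 160) and 2 in C6 nuclei (0.70 CPM, 0.08 to 2.53). Neuromedin S, encoded by Nms and known from the suprachiasmatic nucleus, had 20 UMIs and 1 UMI. The vasopressin gene Avp was at 567 CPM (500 to 641) against 19.3 (14.5 to 25.1), and Vip at 87.9 (62.8 to 120) against 13.7 (9.73 to 18.7). Over all of M22, Avp had a UMI in 7.73% of thinned nuclei, below the 14.4% of oligodendrocytes, and Vip in 0.71%, against 0.10%. Without the C15 nuclei Vip was at 0.31, 1.89, 0 and 11.3 CPM in the libraries' order above. M22 then still ranked first of 37 for Vip, at a mean of 3.38 CPM. In C15 against C6 nuclei, Vipr2 was at 156 CPM (122 to 197) against 8.07 (5.11 to 12.1). Prr5l, the gene with the largest difference, was at 404.5 (348 to 467) against 1.75 (0.57 to 4.09). Prr5l also had a UMI in 95.7% of thinned oligodendrocytes. The summed oligodendrocyte markers were at 160 CPM in C15 and 125 CPM in C6 nuclei, with 1 of 8 markers at 0 UMIs in C15 nuclei, and the neuron markers at 12531 and 15228 CPM. In contrast, Mme was at 2.20 against 17.5 CPM. Meis2 had no UMI in C15 nuclei, which allows 6.60 CPM (3 counts), and was at 28.4 CPM (22.6 to 35.3) in C6 nuclei. Both kinds of nuclei had Gad1 (178 against 133 CPM), Gad2 (204 against 300) and Lhx1 (68.2 against 36.8). These intervals again cover counting error, and the 2 sets come from 1 library, so the differences have no replicate check.

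**Figure D3:**
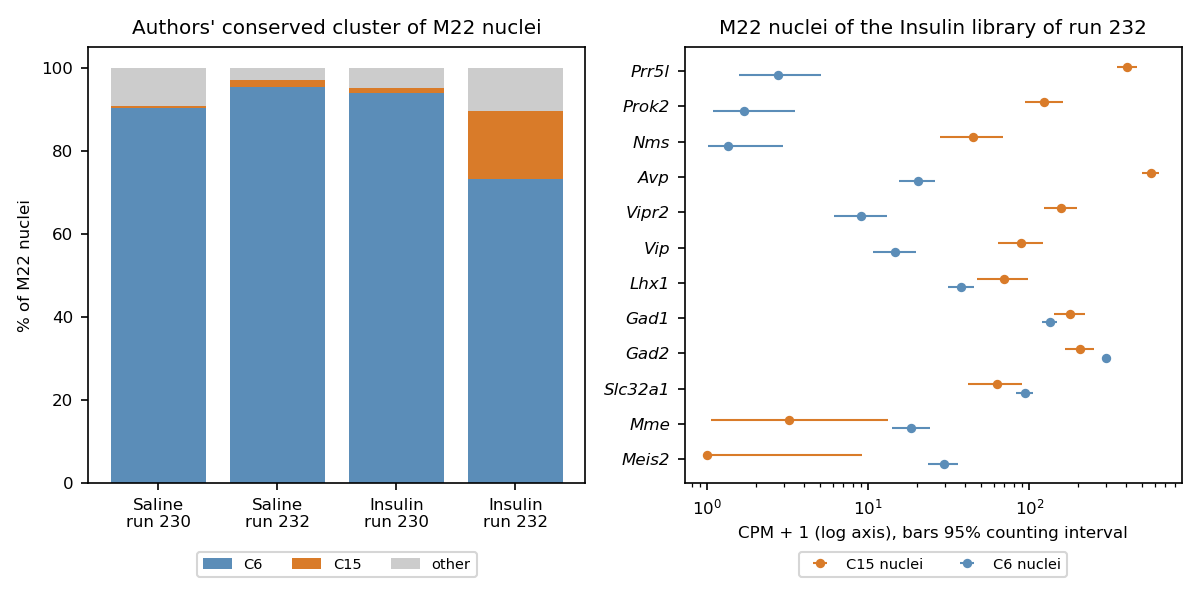
Left, percent of the M22 nuclei of each library in the conserved clusters C6, C15 and all others; C15 takes 16.5% of the run 232 Insulin library, against 0.568 to 1.64% elsewhere. Right, CPM + 1 (log axis) of 12 genes in C15 and C6 nuclei of that library with exact 95% Poisson intervals, from Prr5l (404.5 against 1.75 CPM) to Mme (2.20 against 17.5 CPM).

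The design compares Insulin with Saline. M22 made up 5.53% (exact 95% binomial interval 4.98 to 6.12%) and 8.04% (7.32 to 8.80%) of neurons in the Saline libraries of runs 230 and 232, and 6.96% (6.30 to 7.67%) and 8.83% (8.13 to 9.57%) in the Insulin libraries. The 2 groups overlapped. The Insulin share was higher by 1.43 percentage points within run 230 and by 0.797 within run 232. The mean difference of 1.11 points was smaller than the SD of 1.56 between libraries of a group, with p = 0.667 in a two-sided exact permutation test of 2 against 2 libraries, which cannot go below 0.333. With only C6 nuclei counted, the difference was 0.17 points, and without the Saline library of run 230 it was -0.14. Without the C15 nuclei the Insulin share of run 232 was 7.38%, below the 7.90% of the Saline library of that run counted the same way.

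No gene passed the test of Insulin against Saline within M22. With edgeR's quasi-likelihood test, 0 of 13701 genes were called at an adjusted p of 0.05 (0%), and 104 had an unadjusted p under 0.05. DESeq2 called 0 as well, with 39 under 0.05 unadjusted, and limma-voom 0, with 89. Both Insulin libraries lay above both Saline libraries for 12.5% of genes and below them for 11.1%. The median log2 change over all genes was -0.00. Sequencing run, which goes with sex here, moved libraries together, so that genes with small p are given with their values in each run.

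The 2 smallest p-values belonged to transcription factors that were lower after Insulin. Meis2, a homeodomain factor (ENSMUSG00000027210, chr2:115863064-116065839, minus strand), was at 61.8 and 88.0 CPM in the Saline libraries of runs 230 and 232 and at 32.3 and 21.6 CPM in the Insulin libraries. The groups did not overlap, and the log2 change was -1.49 ± 0.26 (SE), with an adjusted p of 1.00 by edgeR and 0.103 by DESeq2. Sox6, an SRY-box factor (ENSMUSG00000051910, chr7:115470872-116038796, minus strand), was at 53.2 and 36.1 CPM against 20.3 and 19.8, a log2 change of -1.18 ± 0.27 (SE), adjusted p 1.00 by edgeR. Without the C15 nuclei the log2 changes were -1.42 and -1.13. In all other neurons together they were -0.76 for Meis2 and -0.08 for Sox6. With the run as replicate block, which left 1 residual degree of freedom, the adjusted p of both was 0.718 by edgeR. With the block and without the C15 nuclei, a setting chosen after seeing the data, Meis2 alone was called (adjusted p 0.0143 by edgeR). DESeq2 with the block and all M22 nuclei called 0 genes (smallest adjusted p 0.104).

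The Meis2 signal lay in few nuclei. Of 726 Meis2 UMIs in M22, 636 (87.6%) were in the 75 nuclei, 4.41% of M22, that had at least 3 of them. There were 21 and 34 such nuclei in the Saline libraries and 12 and 8 in the Insulin libraries, while the UMIs outside them numbered 18, 31, 22 and 19. After thinning, Meis2 had a UMI in 4.96% of M22 nuclei and in 6.12% of oligodendrocytes. Among thinned M22 nuclei with a Meis2 UMI, 15.5% also had one of Sox6, against 3.72% of nuclei without. Meis2 was highest in M20.GABA, the population closest to M22, where Meis2 was at 979 and 841 CPM in the Saline libraries and 715 and 732 in the Insulin libraries. M20.GABA made up 3.80 and 6.42% of neurons in the Saline libraries and 4.13 and 3.27% in the Insulin libraries. Summed counts do not tell fewer nuclei with a transcript from less of it per nucleus, and the part of Meis2-rich nuclei in the change was not tested. Sox6 was less concentrated: 44 nuclei with at least 3 UMIs held 71.9% of 455 UMIs, and numbered 13, 14, 9 and 8.

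Among genes with higher values after Insulin, Gem had the smallest p. Gem, a small GTPase induced by activity that limits calcium channels, was at 4.33 and 4.55 CPM in the Saline libraries and at 10.6 and 25.4 in the Insulin libraries. Its log2 change was 1.99 ± 0.49 (SE; adjusted p 1.00 by edgeR) and was 1.38 without the C15 nuclei, in which Gem was at 117 CPM against 12.3 in C6 nuclei of the same library. Few nuclei held much of it: in the Insulin library of run 230, 5 nuclei had 26 of the 37 Gem UMIs (70.3%), and in that of run 232 a single nucleus had 25 of 99. Outside nuclei with at least 3 UMIs there were 14, 13, 11 and 50 Gem UMIs in the Saline libraries of runs 230 and 232 and the Insulin libraries of runs 230 and 232. The peptide transporter gene Slc15a2 was at 18.2 and 20.9 against 48.7 and 32.3 CPM, and its last value was 22.7 without the C15 nuclei, against 20.8 in the Saline library of the same run. The growth factor gene Vegfc was at 6.18 and 8.29 against 13.7 and 22.1 CPM. Without the C15 nuclei it was at 6.21 and 7.84 against 13.3 and 10.7, and its log2 change was 0.75 in place of 1.28. The transcription factor gene Sim1, at 38.6 CPM over the other populations, was in M22 at 0.93 and 2.41 against 8.87 and 5.90 CPM. Sim1 had a UMI in 0.35% of thinned M22 nuclei and 0.58% of oligodendrocytes, so this level may be background. None of these genes passed the test within M22. The log2 changes in M22 and in the other neurons were 1.99 and 1.02 for Gem and 1.03 and 0.78 for Slc15a2. They were 1.28 and 0.06 for Vegfc and 2.08 and 0.43 for Sim1.

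The 29 immediate early genes, which neurons transcribe within minutes of strong stimulation, were low in M22. Of these, 21 reached 10 CPM in some population, and M22 was above the mean of the others for 0 (40.5% of all such genes were). Their median log2 ratio was -0.57. That mean included high populations, such as M27.Trh at 145 CPM of Btg2, and M22 ranked 27 for Btg2 and 18 for Dusp1. Their summed level in M22 was 150.6 and 190.5 CPM in the Saline libraries and 191.2 and 263.5 CPM in the Insulin libraries. Of the 14 that passed the filter on low counts, 11 had a log2 change above 0 (49.3% of all genes did). In both Insulin libraries, 9 lay above both Saline libraries (12.5% of all genes did) and 2 below (11.1%). None was called. Their median log2 change was 0.61, against -0.00 over all genes, and 0.49 within run 230 and 0.46 within run 232. Members also rose in the other neurons. Btg2 (log2 change 1.00 there, 0.75 in M22) and Egr1 (0.92 and 0.79) rose more there. Per1 (0.41 and 1.25) and Npas4 (0.59 and 1.11) rose less there than in M22. None of these differences passed adjustment in the edgeR interaction test described below. Its unadjusted p was 0.330 for Btg2, 0.801 for Egr1, 0.00793 for Per1 and 0.287 for Npas4. The median in M22 was 0.50 without the C15 nuclei and 0.35 with C6 nuclei alone, where fewer members passed the filter (12).

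The single members were at few CPM. The clock and immediate early gene Per1 was at 6.49 and 4.82 against 10.9 and 16.4 CPM, a log2 change of 1.25, and 1.00 without the C15 nuclei. Btg2, an antiproliferative gene, was at 6.80 and 9.90 against 12.02 and 16.7 CPM, and the kinase gene Sik1 at 7.11 and 5.35 against 9.16 and 14.9. Without the C15 nuclei the last value of Sik1 was 9.01 CPM and its log2 change 0.53 in place of 0.92, and that of Btg2 was 0.56 in place of 0.75. Fos, the best known of the list, did not pass the filter, at 1.24, 1.07, 1.14 and 6.42 CPM. Its one high value was in the Insulin library of run 232. Junb was at 5.87 and 6.42 against 8.30 and 8.72 CPM, a log2 change of 0.44 in M22 and 1.37 in the other neurons. That difference of -0.92 did not pass adjustment (adjusted p 1.00 by edgeR, unadjusted 0.0172). Bdnf and Homer1 lay lower in both Insulin libraries, at 4.87 and 6.93 against 7.42 and 9.63 CPM for Bdnf, a neurotrophin gene.

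**Figure D4:**
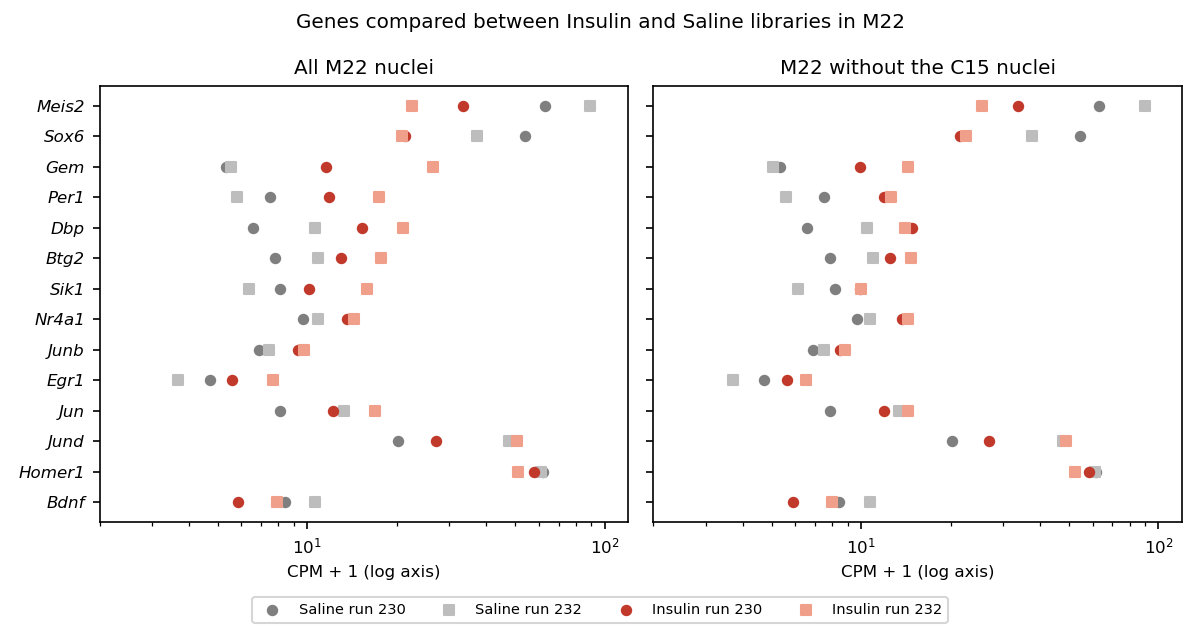
CPM + 1 on a log axis of 14 genes in the 4 libraries, in all M22 nuclei (left) and without the C15 nuclei (right). Insulin libraries (red) lie left of Saline libraries (grey) for Meis2 and Sox6 in both panels, and the Insulin library of run 232 moves towards the others without C15 nuclei for Gem, from 25.4 to 13.4 CPM.

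Insulin acts through its receptor tyrosine kinase, which signals by IRS proteins, PI3-kinase and AKT to FoxO factors and mTOR. The receptor gene Insr was at 133 and 112 CPM in the Saline libraries and 124 and 107 in the Insulin libraries of M22, a mean of 119 against 119 over the other populations, and ranked 16 of 37. Of 32 insulin signalling genes at 10 CPM somewhere, M22 was above the others for 5 (15.6%, against 40.5% of all such genes). Their median log2 ratio was -0.06. Pik3r1, which encodes a regulatory subunit of PI3-kinase, was at 37.8 against 71.8 CPM. Igfbp5, an IGF-binding protein gene, ranked 3, at 12.1, 30.2, 19.7 and 35.4 CPM against 12.1, and 37.7% of its UMIs in the Insulin library of run 232 came from C15 nuclei, without which it ranked 5. In the treatment test 33 members passed the filter, 0 were called and 17 were above 0 (49.3% of all genes were). Their median log2 change was 0.00. The log2 change was -0.12 ± 0.18 (SE) for Insr and 0.00 ± 0.24 for Irs2, which encodes an adaptor of the receptor.

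Whether Insulin acted differently in M22 than in the other neurons was tested as an interaction. With edgeR's quasi-likelihood test, 0 of 19224 genes were called (0%), with 767 under an unadjusted p of 0.05, and DESeq2 called 0, with 113. The smallest adjusted p was 0.129, for Sox6. Its level in all other neurons together was 41.7 and 36.9 CPM in the Saline libraries and 34.0 and 41.0 in the Insulin libraries. In M20.GABA, the population closest to M22, Sox6 was also lower in both Insulin libraries, at 46.1 and 45.9 CPM against 116.5 and 51.5. In M19.Ddc and M23.Sim1|Pou3f2 the Insulin and Saline libraries overlapped. Sema6d, a semaphorin gene, and Fras1, an extracellular matrix gene, followed (adjusted p 0.132 for both). Sema6d in M22 was at 587 and 326 CPM in the Saline libraries and 382 and 256 in the Insulin libraries, against 289, 178, 268 and 226 in the other neurons. Fras1 in M22 was at 71.7 and 55.6 against 59.2 and 33.4. Without the C15 nuclei, an alternative chosen after seeing the data, these 3 genes were called, each with a lower log2 change in M22 than in other neurons (-1.04 for Sox6, -0.55 for Sema6d and -0.70 for Fras1). The count was 25 without the Saline library of run 230, 106 without the Saline library of run 232, 83 without the Insulin library of run 230 and 8 without the Insulin library of run 232.

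Within M22, leaving out a library gave calls in 2 cases. Without the Insulin library of run 230, which leaves 1 Insulin library, 10 genes were called higher after Insulin within M22: Prr5l, Dlk1, 9330185C12Rik, Nnat, Rasl11b, Rorb, Vip, Prkd1, Cdc14a and Rgs16. These genes were higher in C15 than in C6 nuclei of the Insulin library of run 232. That library was also the only Insulin library in the fit, so this was largely fixed in advance, and a cause was not tested. The nuclear receptor gene Rorb was at 119.3, 188.1, 184.6 and 516.8 CPM in M22, and its last value was 236.2 without the C15 nuclei. Without the Saline library of run 232 the oxytocin gene Oxt alone was called, at 2.16 and 65.0 CPM in the Saline libraries and 38.3 and 28.996 in the Insulin libraries. Oxt had a UMI in 7.20% of thinned M22 nuclei and in 19.6% of oligodendrocytes, so its level may be background. Leaving out the Saline library of run 230 or the Insulin library of run 232 gave 0 calls by edgeR, with 157 and 40 genes under an unadjusted p of 0.05.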

How the data were processed

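The values the authors deposited are unnormalized UMI counts for every gene in each nucleus. The submitters' processing notes name Cell Ranger and the GRCm38 build. The version, annotation and strand setting are not given in the sources used here. The authors' deposited table gave library, run, treatment, cell type, population and conserved cluster. Of its nuclei, 11 had no matching barcode, none of them in M22. Nuclei the authors called doublets are in no population, and no doublet caller was run. M22 was taken by its name, and some genes, the one in that name included, are not reported here. Library names carry no replicate numbers, so libraries are named by treatment and run.

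Counts were summed per library. Insulin was tested against Saline with edgeR 4.0.16 in R 4.3.3 (TMM, filterByExpr with minimum count 10 and total 15, quasi-likelihood, Benjamini-Hochberg over all genes tested, threshold 0.05), with 2 residual degrees of freedom. The interaction fit had library as a term. DESeq2 1.42.0 and limma 3.58.1 were alternatives. Deviations of same-run libraries correlated at 0.542 over 13701 genes. The value was 0.505 over the 13695 left without Xist, Tsix, Uty, Ddx3y, Kdm5d and Eif2s3y, with other X-linked genes kept. Run, given in the deposited table, therefore served as replicate block in a further fit. Within-run log2 values used 0.5 CPM added. The fits and the profile were tested on simulated data.

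Genes were named by a rule: the 25 highest and 10 lowest by ratio to the other populations, list members ranked 1 to 3, last or among the 3 with most UMIs, the 5 smallest p in each direction, and the largest differences from the 3 closest populations. Predicted genes and some others that the rule selects are not described. Pmch, Oxt, Xist, Prr5l and the genes compared between C15 and C6 nuclei were added after their values were seen. Members and lists were chosen with earlier results of these data known. Alternatives were other tools and scalings, no filter, other pseudocounts, thinning, leaving out each library, and, chosen after seeing the data, M22 without the C15 nuclei or with C6 nuclei alone.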

Additional observations from a re-analysis of the deposited data

How the results depend on the processing

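Genes called for Insulin against Saline in M22 stayed at 0 with DESeq2, RLE scaling, limma-voom and the run as replicate block. They numbered 20 without the filter on low counts, 0 to 10 with a library left out, and 1 without the C15 nuclei and with the replicate block. For the interaction the count stayed at 0 with DESeq2 and RLE scaling. It was 38 without the filter, 8 to 106 with a library left out, 3 without the C15 nuclei and 5 with C6 nuclei alone. The cause was not tested. A library left out leaves a lone library in its group, which is assumed to vary like the other group. The median log2 change of the immediate early genes kept its sign: it was 0.61 with the replicate block, 0.78 without the filter, 0.47 to 0.99 with a library left out, 0.50 without the C15 nuclei and 0.35 with C6 nuclei alone. The share difference moved by less than the SD between libraries, from -0.14 to 2.37 points with a library left out. Of the 25 leading genes, 18 to 24 remained under the alternatives tried, fewest after thinning to 2000 UMIs, and the 3 closest populations remained with 1000 and 4000 genes. Calls within M22 are limited by 2 libraries a group, and genes of a few CPM rest on few UMIs.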
